A study of Homo sapiens and Canis lupus familiaris with 27 samples.

Results

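The response of LNCaP cells to 24 h with the indolylmaleimide PDA-66 was measured by RNA sequencing in 6 of the 27 samples of the series. LNCaP is a human prostate carcinoma line that was established from a lymph node metastasis and responds to androgens. Of the 6, 3 had received 15 μM PDA-66 for 24 h and the other 3 were controls in 0.15% DMSO, the vehicle, which are labelled with 24 h as well. No group carried a genetic change, all cells grew in RPMI 1640 medium with fetal bovine serum, and the samples of a group were separate biological replicates according to the methods of the study. The comparison was made on the 3 PDA-66 libraries against the 3 DMSO libraries across all genes, and 12926 of the 23708 genes listed had enough reads to be tested. A single cell line at a single dose and a single vehicle was measured, so that the values hold for this setting.

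PDA-66 has been described as an agent that depolymerizes microtubules. Microtubules are polymers of alpha and beta tubulin that form the mitotic spindle, and when chromosomes are not attached to it the spindle assembly checkpoint holds the cell before anaphase. Cells that stay in this state may die in mitosis or leave it without dividing. Transcripts of mitotic genes are made mostly in G2 and M phase and those of replication genes mostly in late G1 and S phase, so that their level in a culture follows how its cells are spread over the cycle. In RNA of whole cultures, fewer cells of a state and less RNA per cell cannot be told apart, and this holds for every level given here.

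Total counts on genes were 11923105 to 13858607 in the DMSO libraries and 12871344 to 14579939 after PDA-66. The markers of luminal prostate cells were present as labelled, and KLK2, KLK3, HOXB13, FOLH1, STEAP2, KRT8, KRT18 and TMEFF2 were detected in each library. Levels are given as counts scaled to library size (CPM). HOXB13 and KRT18 do not set LNCaP apart from PC-3. In the PC-3 controls HOXB13 stood at 775 and 733 CPM and KRT18 at 345 and 331 CPM. In the LNCaP libraries they stood at 361 to 480 CPM and 233 to 283 CPM. Markers of other cell types were mostly near 0 but not all absent. Of the basal markers, TP63 had 0 reads in all 6 libraries and KRT5 and KRT15 at most 0.211 CPM, while DST stood at 28.5 to 39.0 CPM and LAMB3 at 2.01 to 6.34 CPM. KRT14, at 0.474 to 2.06 CPM, was called lower (log2 fold change -1.18, adjusted p = 0.0413). Of the PC-3 markers, CAV2 had 0 reads, against 32.7 and 35.7 CPM in the PC-3 controls, and VIM stood at 10.3 to 14.9 CPM and ANXA1 at 1.79 to 4.28 CPM. Of the neuroendocrine markers, INSM1 had 0 reads, SYP and NCAM1 had reads in each library at 0.383 to 1.39 CPM, and ENO2 stood at 51.5 to 55.9 CPM. The endothelial list summed to 22.8 to 40.2 CPM in the DMSO libraries and 6.18 to 7.35 CPM after PDA-66. This sum was nearly all VWF, the von Willebrand factor, which fell with a log2 fold change of -2.14 ± 0.218 (SE) and an adjusted p of 0.00222. CDH5 had 0 reads, and PECAM1 and KDR had none in 5 of the 6 libraries. COL1A1 of the fibroblast list stood at 18.9 to 27.8 CPM and CD68 of the leukocyte list at 7.71 to 16.2 CPM.

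Across all genes, 3057 were called at an adjusted p under 0.05 by the quasi-likelihood test of edgeR (Benjamini-Hochberg), which is 23.7% of those tested. There were 1453 genes called higher after PDA-66 (11.2%) and 1604 called lower (12.4%), and the median log2 fold change of all genes was -0.0098. The 2 groups did not overlap for 45% of the genes, 23.3% with PDA-66 above and 21.8% with PDA-66 below, while 48.8% of all genes had a log2 fold change above 0. At an unadjusted p under 0.05 there were 39% of the genes. At an adjusted p under 0.001, the threshold that the study used, 8 genes remained by the test used here (0.0619%). Of these, FKBP5 and CYP1A1 were higher and KRT75, DIO3, SIPA1L2, ARG2, RDH11 and GDF15 lower. This is not the count of the study, which used edgeR 3.14.0 where edgeR 4.0.16 was used here.

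The DMSO libraries differed more from each other than the PDA-66 libraries did. Over the 9701 genes with a mean of at least 10 CPM, the median coefficient of variation was 13.1% in the DMSO group and 4.78% after PDA-66, and 88.6% of these genes were more variable in the DMSO group. DMSO replicate 1 was the control nearest to the PDA-66 level for 71.0% of the genes called higher and 73.6% of those called lower. DMSO replicate 3 was the farthest control for 55.7% of the genes called higher, and for those called lower replicate 2 was the farthest for 47.2% and replicate 3 for 44.8%. The number of calls moved with single libraries, to 5990 without DMSO replicate 1, 2378 without replicate 2 and 1474 without replicate 3. It was 820, 643 and 859 without PDA-66 replicate 1, 2 or 3. Every gene called both in one of these fits and with all 6 libraries had the same direction. The fits share most of their libraries and are not independent, so that this says little about stability. In all of these fits 584 genes were called, 314 of them higher and 270 lower, and these are named here as calls that held with each library left out. Counts with a library left out are given in the order of replicates 1, 2 and 3. For all genes the calls higher numbered 2982, 1195 and 744 without a DMSO replicate and 424, 329 and 443 without a PDA-66 replicate. Those lower numbered 3008, 1183 and 730 without a DMSO replicate and 396, 314 and 416 without a PDA-66 replicate. These fits tested 13086 to 13225 genes, and list counts stand against these numbers.

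**Figure D1:**
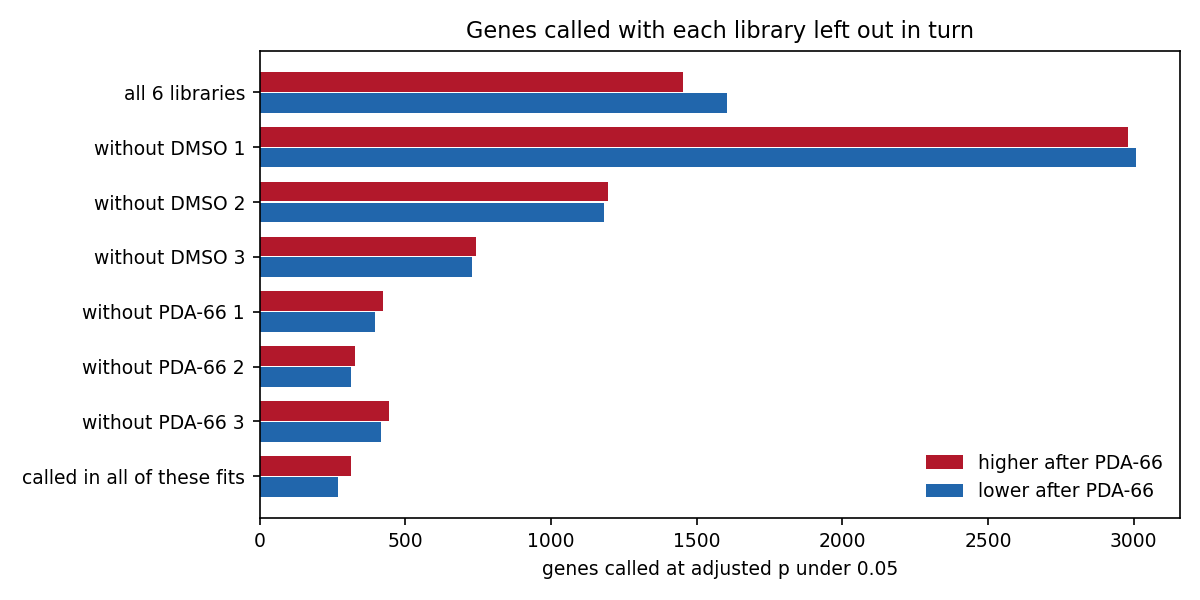
Number of genes called higher (red) and lower (blue) after PDA-66 at an adjusted p under 0.05 (x axis), with all 6 libraries, with each library left out, and in all of these fits (y axis). The count rose to 5990 without DMSO replicate 1 and fell to 643 without PDA-66 replicate 2, and 584 genes were called in every fit.

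**Figure D2:**
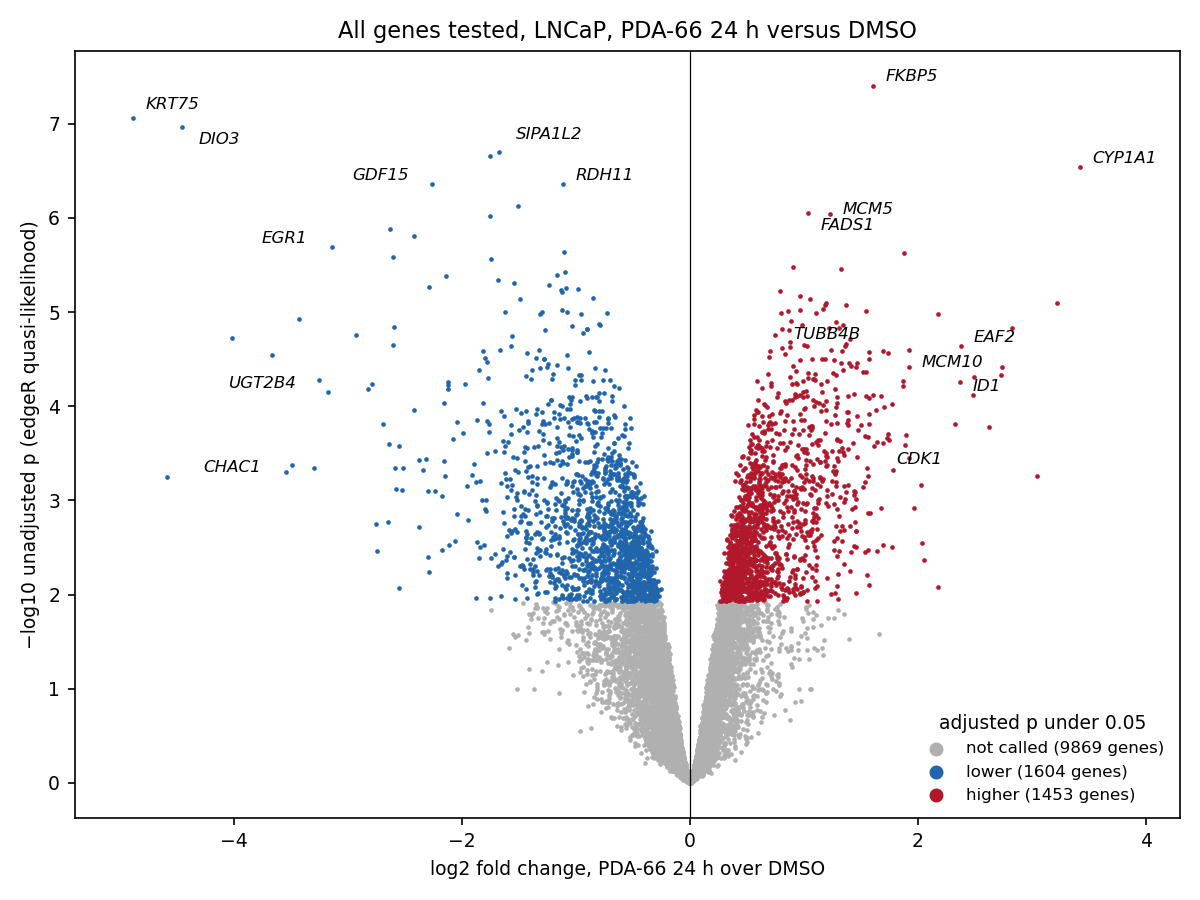
Each point stands for a gene of the 12926 genes tested, with its log2 fold change between PDA-66 and DMSO on the x axis and the −log10 of its unadjusted p on the y axis. The 1453 genes called higher are red, the 1604 called lower are blue, and FKBP5 has the smallest p.

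The gene with the smallest p was FKBP5, an androgen- and glucocorticoid-induced co-chaperone of steroid receptors (hg19 chromosome 6, 35541362 to 35696360). It stood at 149, 136 and 125 CPM in the DMSO libraries and 400.1, 433 and 412 CPM after PDA-66, and its log2 fold change was 1.61 ± 0.0953 (SE) with an adjusted p of 0.000468. The 3 values of each group lay close together and far from those of the other. CYP1A1, a monooxygenase that the aryl hydrocarbon receptor (AHR) switches on, rose from a low level, with 0.933, 0.419 and 0.628 CPM in the DMSO libraries and 6.88, 7.04 and 8.02 CPM after PDA-66 and a log2 fold change of 3.43 ± 0.255 (SE) (adjusted p = 0.000617). FADS1, a desaturase of polyunsaturated fatty acids, measured 247, 214 and 244 CPM in the DMSO libraries and 484, 485 and 476 CPM after PDA-66, which is a 2.05-fold increase (adjusted p = 0.00103). MCM5, a subunit of the replicative helicase, had 60.2, 55.3 and 49.2 CPM in the DMSO libraries and 135, 123 and 129 CPM after PDA-66, with a log2 fold change of 1.23 ± 0.105 (SE) (adjusted p = 0.00103). CCDC141 was the fifth of the genes with the smallest p that rose, with a log2 fold change of 1.88.

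Among the genes that fell, KRT75, a keratin of the hair follicle, had the smallest p (hg19 chromosome 12, 52817854 to 52828155). It had 65, 67 and 75 reads in the DMSO libraries and 3, 3 and 1 after PDA-66, and a log2 fold change of -4.89 ± 0.325 (SE) with an adjusted p of 0.000468. DIO3 encodes the deiodinase that inactivates thyroid hormone and lies in an imprinted region (hg19 chromosome 14, 102026476 to 102029789). Its level was 27.5, 28.6 and 50.2 CPM in the DMSO libraries and 1.51, 1.67 and 1.64 CPM after PDA-66, the largest decrease among the genes with a mean of at least 10 CPM, with a log2 fold change of -4.46 ± 0.297 (SE) and an adjusted p of 0.000468. SIPA1L2, a GTPase-activating protein, fell from 204 ± 30.5 to 64.0 ± 0.766 CPM (SD, n = 3 each). ARG2, the mitochondrial arginase, fell from 338 ± 54.5 to 100.3 ± 5.15 CPM (SD, n = 3 each), and its exons share 39.6% of their bases with VTI1B on the other strand, from which reads could not be told apart. GDF15, a stress cytokine, measured 406, 348 and 570.0 CPM in the DMSO libraries and 100.1, 83.2 and 92.0 CPM after PDA-66 (log2 fold change -2.27 ± 0.177 (SE), adjusted p = 0.000709). For these genes the highest PDA-66 library was below the lowest DMSO library.

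Where the mean was 10 CPM or more and the groups did not overlap, 2354 called genes qualified for ranking by size, and the 12 largest increases had log2 fold changes of 1.74 to 2.38. EAF2, an androgen-induced elongation factor partner, led with 10.1, 5.28 and 3.46 CPM in the DMSO libraries and 31.9, 31.4 and 35.7 CPM after PDA-66. ID1 and ID3, inhibitors of basic helix-loop-helix factors and targets of BMP signalling, rose by 2.37 and 1.78 on the log2 scale, and S1PR3, a sphingosine-1-phosphate receptor, by 2.03. DEFB132, a beta-defensin, rose by 2.18 and DUSP2, a phosphatase of MAP kinases, by 1.87. The other 6 belong to lists for replication, the kinetochore, nucleotide supply and CDK inhibitors and were MCM10, CDKN2C, CENPI, SPC25, RRM2 and CLSPN. All 12 calls held with each library left out.

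The 12 largest decreases had log2 fold changes of -2.38 to -4.46. CHAC1, which degrades glutathione and is induced by ATF4, measured 5.96, 30.6 and 47.8 CPM in the DMSO libraries and 2.06, 2.50 and 2.65 CPM after PDA-66, so that DMSO replicate 1 lay near the PDA-66 libraries and the other controls far above them. The same order of the controls was seen for ANGPT2, an angiopoietin, with 57.3, 141 and 177 CPM in the DMSO libraries and 16.8, 16.7 and 15.7 CPM after PDA-66. TSC22D3, a glucocorticoid-induced leucine zipper protein, changed by -2.79 ± 0.395 (SE), and S100P, a calcium-binding protein, by -2.75 ± 0.631 (SE), which was no longer called when any PDA-66 replicate was left out. CD55, a complement inhibitor, and CDH26, a cadherin, fell by 2.59 and 2.56 on the log2 scale. EGR1, FOS, DDIT3 and SLC7A11 also belong to the 12 and are described with their lists. Except for S100P and SLC7A11, the calls named here held with each library left out.

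**Figure D3:**
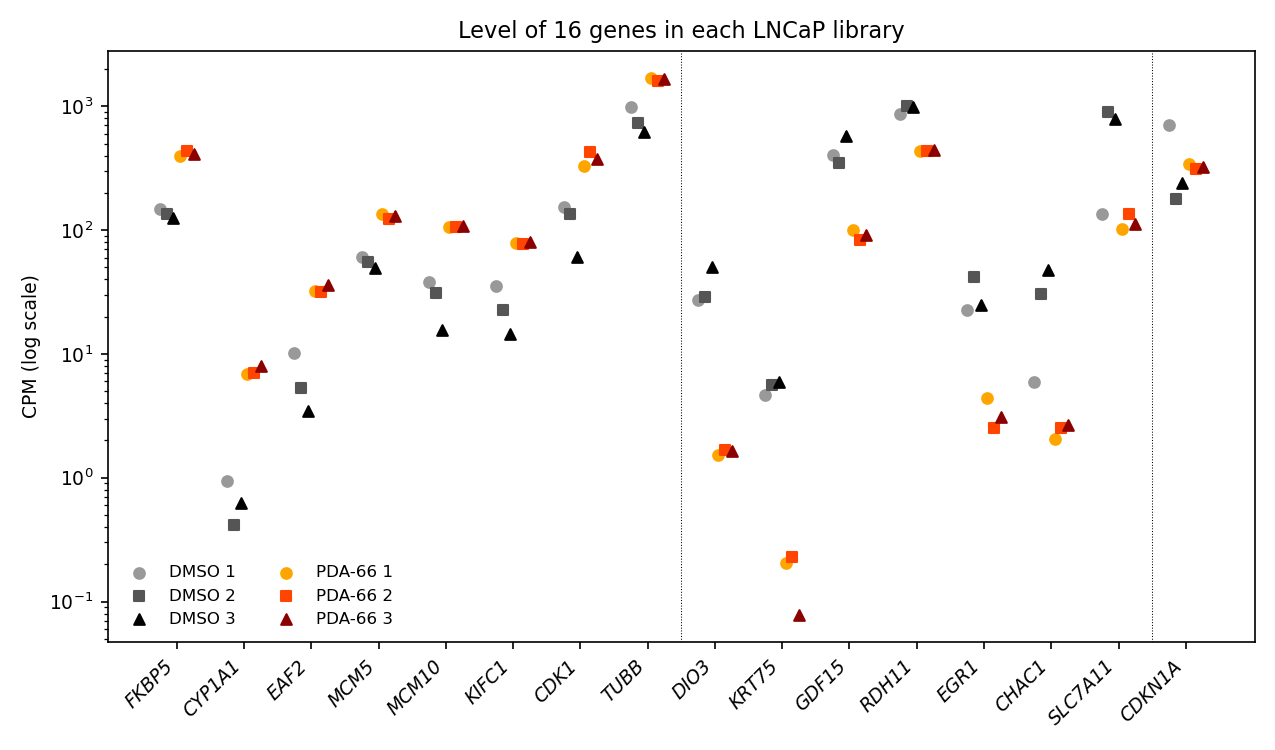
Level of 16 genes in CPM on a log scale (y axis) in each of the 6 LNCaP libraries, DMSO in grey to black and PDA-66 in orange to red. The first 8 genes were called higher and the next 7 called lower, while CDKN1A, on the right, was not called, with DMSO replicate 1 above and the other controls below the PDA-66 libraries.

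Of the 36 gene lists examined, those for the spindle, mitosis, the kinetochore and replication had most of their tested members called higher. Of the 39 genes for mitotic kinesins and spindle proteins, 36 were called higher and 0 lower, against 11.2% and 12.4% of all genes, and the median log2 fold change of the list was 1.20 against -0.0098. KIFC1, a kinesin that focuses spindle poles, stood at 35.6, 22.7 and 14.5 CPM in the DMSO libraries and 79.4, 77.5 and 80.7 CPM after PDA-66, and its log2 fold change was 1.70 ± 0.260 (SE) (adjusted p = 0.00543). KIF18B, which shortens microtubules, rose by 1.63 on the log2 scale, KIF14, a cytokinesis motor, by 1.39, and INCENP, the scaffold of the chromosomal passenger complex, by 1.38. KIF11, the motor that separates the spindle poles, rose by 1.11, and TOP2A, which untangles sister chromatids, by 0.88. The calls for KIF11 and TOP2A were lost when any PDA-66 replicate was left out, and that for TOP2A also without DMSO replicate 3. In all 39 genes every PDA-66 library lay above every DMSO library, against 23.3% of all genes tested. The number of members called higher was 39, 29 and 31 without a DMSO replicate and 21, 13 and 22 without a PDA-66 replicate, and 13 calls held in each.

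Of the 26 regulators of mitotic entry and exit, 20 were called higher and 0 lower, with a median log2 fold change of 1.08. CDK1, the kinase that drives entry into mitosis, had 155, 136 and 60.4 CPM in the DMSO libraries and 332, 429 and 377 CPM after PDA-66, with a log2 fold change of 1.70 ± 0.291 (SE) (adjusted p = 0.00740). Its partner cyclin B1, CCNB1, stood at 227, 102 and 66.1 CPM in the DMSO libraries and 262, 296 and 278 CPM after PDA-66 and was not called (log2 fold change 1.08 ± 0.362 (SE), adjusted p = 0.0589), with DMSO replicate 1 just under the PDA-66 libraries. MYBL2 and FOXM1, transcription factors of late cell cycle genes, rose by 1.57 and 1.39 on the log2 scale. PLK1 rose by 1.08, AURKA by 1.56, CCNA2 by 1.65 and CCNB2 by 1.10, but each of these 4 calls was lost without PDA-66 replicate 2 and those for CCNA2, CCNB2 and PLK1 also without replicate 1 or 3, and without DMSO replicate 2 AURKA, CCNA2 and CCNB2 were not called. Of the 15 spindle assembly checkpoint genes, 10 were called higher, with a median of 1.04. ZWILCH, a kinetochore protein of the checkpoint, rose by 1.35, CDC20, the activator of the anaphase-promoting complex, by 1.29 and BUB1B by 1.41. MAD2L1, a central checkpoint protein, was not called (log2 fold change 0.89 ± 0.324 (SE), adjusted p = 0.0754). Of these, only ZWILCH was called with each library left out.

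For these lists too the counts moved with single libraries. The mitotic entry calls numbered 22, 17 and 17 without a DMSO replicate and 13, 10 and 13 without a PDA-66 replicate, of which 10 held throughout. The checkpoint calls numbered 13, 7 and 10 without a DMSO replicate and 4, 3 and 5 without a PDA-66 replicate, of which 3 held throughout. The summed level of the mitotic entry list, relative to the mean of the controls, was 1.31, 1.00 and 0.684 in the DMSO libraries and 2.02, 2.20 and 2.09 after PDA-66, so that the controls spanned a wide range but stayed below all PDA-66 libraries. Of the 24 kinetochore and centromere genes, 19 were called higher and 0 lower (median 1.03). CENPI, which helps to build the centromere, had 9.76, 9.80 and 4.01 CPM in the DMSO libraries and 28.3, 29.5 and 28.7 CPM after PDA-66, and SPC24 and SPC25, subunits of the complex that binds microtubules, rose by 1.54 and 1.78 on the log2 scale. The kinetochore calls numbered 20, 16 and 17 without a DMSO replicate and 8, 8 and 8 without a PDA-66 replicate, and 8 held throughout. MKI67, the proliferation marker Ki-67, was chosen after its values were seen and rose from 139.6 ± 43.6 to 379 ± 36.3 CPM (SD, n = 3 each), with a log2 fold change of 1.44 ± 0.211 (SE).

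**Figure D4:**
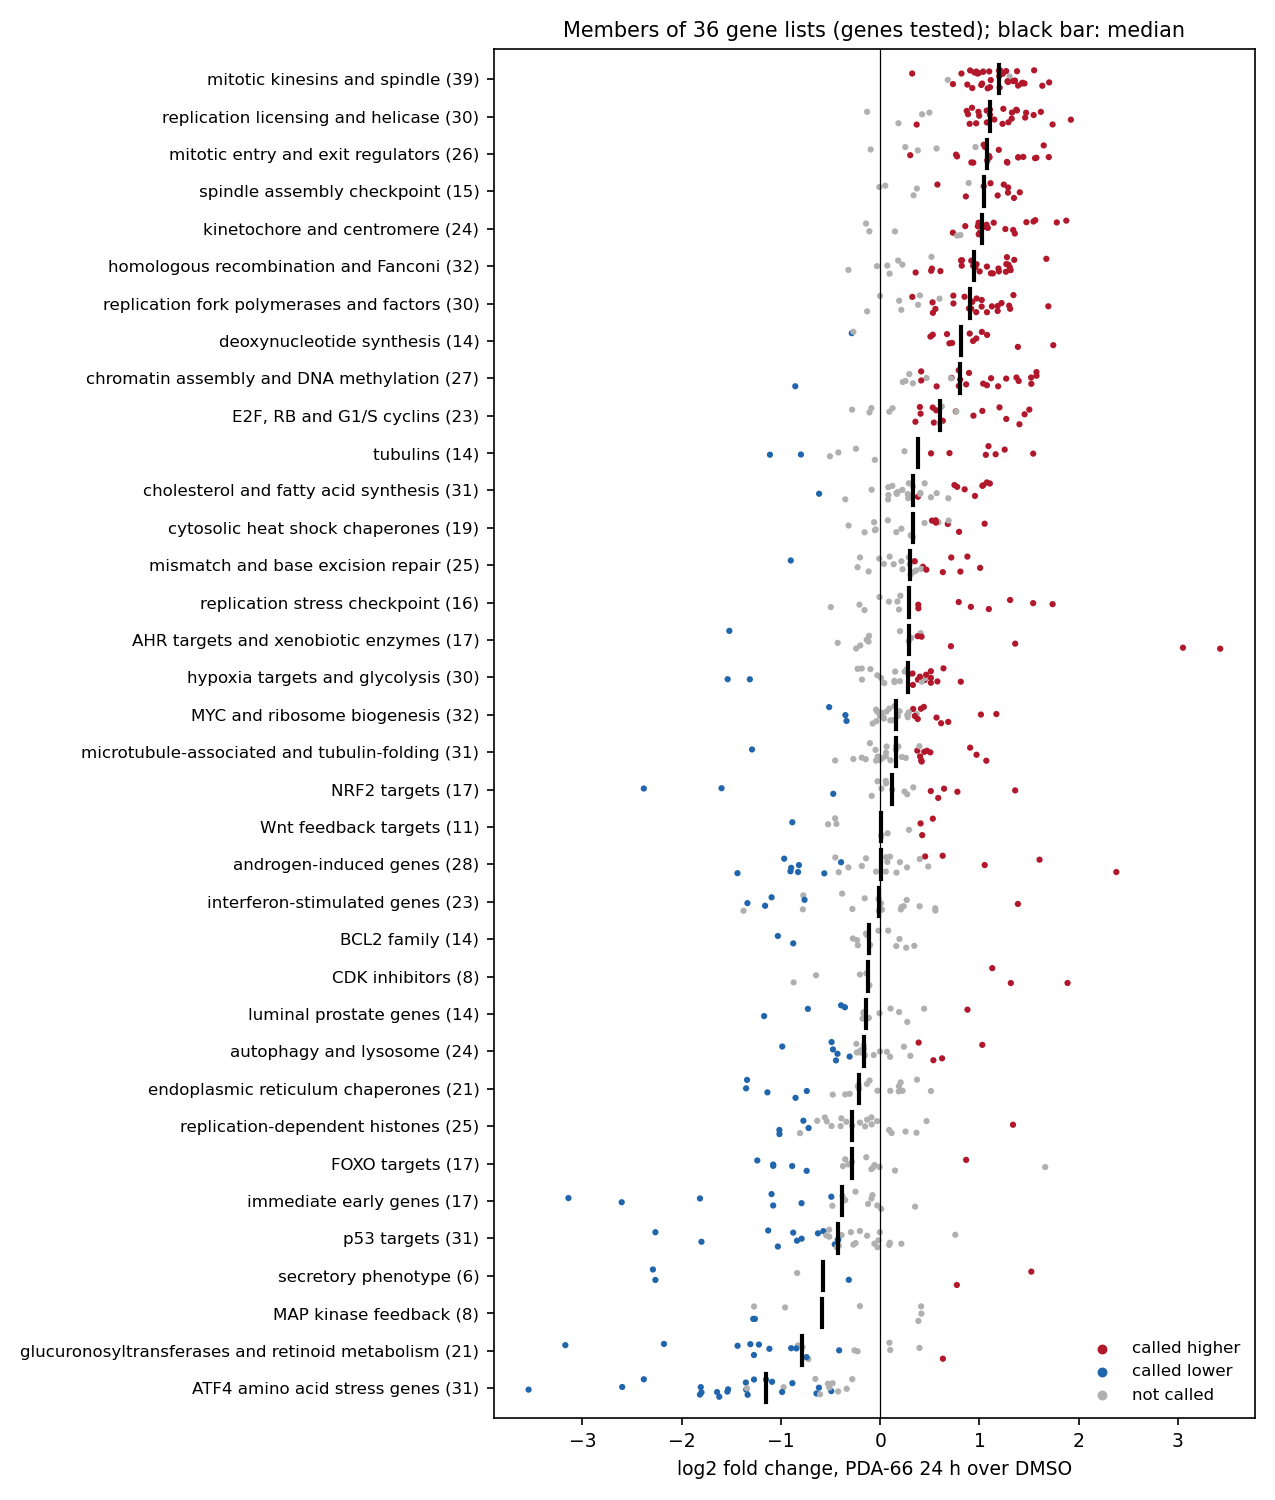
Log2 fold change between PDA-66 and DMSO (x axis) of each tested member of 36 gene lists (y axis, number tested in brackets), with called genes in red or blue, others in grey and the median of each list as a black bar. The lists for mitosis, replication licensing and forks, and homologous recombination lie to the right with medians up to 1.20. Mismatch and base excision repair and the replication stress checkpoint have medians of 0.30 and 0.29. The ATF4 list lies furthest left with a median of -1.15.

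The promoters of 4 cell cycle genes are printed because members of these lists moved together. They are RefSeq sequences of GRCh38.p14, 5′ to 3′, from 250 bases before the transcription start to 50 bases after it, in lower case with motif letters in capitals on either strand. For KIFC1 (chr6:33391573-33391872 on the plus strand), CDC20 (chr1:43358731-43359030 on the plus strand) and CCNB2 (chr15:59104896-59105195 on the plus strand), the capitals mark the cell cycle homology motif TTTGAA, or TTCAAA on the other strand, and the CCAAT box, or ATTGG. For CDC7 (chr1:91500601-91500900 on the plus strand), the kinase that starts replication origins, they mark the E2F motif TTCCCGC, or GCGGGAA.
KIFC1: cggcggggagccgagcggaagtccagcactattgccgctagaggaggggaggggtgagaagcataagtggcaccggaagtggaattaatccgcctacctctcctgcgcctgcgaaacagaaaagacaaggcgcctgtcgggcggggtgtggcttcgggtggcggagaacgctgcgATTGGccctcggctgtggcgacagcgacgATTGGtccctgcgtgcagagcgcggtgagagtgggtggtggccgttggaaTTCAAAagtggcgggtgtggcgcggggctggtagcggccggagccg
CDC20: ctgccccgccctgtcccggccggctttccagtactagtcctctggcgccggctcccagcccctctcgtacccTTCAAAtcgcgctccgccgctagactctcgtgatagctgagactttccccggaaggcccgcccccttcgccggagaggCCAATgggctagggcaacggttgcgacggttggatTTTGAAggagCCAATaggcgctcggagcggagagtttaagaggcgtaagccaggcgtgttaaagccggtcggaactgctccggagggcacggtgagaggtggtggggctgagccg
CCNB2: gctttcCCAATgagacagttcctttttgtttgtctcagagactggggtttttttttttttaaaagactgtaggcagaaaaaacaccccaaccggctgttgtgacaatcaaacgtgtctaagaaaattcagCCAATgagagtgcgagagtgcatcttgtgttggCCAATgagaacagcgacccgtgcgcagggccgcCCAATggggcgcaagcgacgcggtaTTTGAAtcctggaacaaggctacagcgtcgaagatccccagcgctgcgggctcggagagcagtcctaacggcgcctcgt
CDC7: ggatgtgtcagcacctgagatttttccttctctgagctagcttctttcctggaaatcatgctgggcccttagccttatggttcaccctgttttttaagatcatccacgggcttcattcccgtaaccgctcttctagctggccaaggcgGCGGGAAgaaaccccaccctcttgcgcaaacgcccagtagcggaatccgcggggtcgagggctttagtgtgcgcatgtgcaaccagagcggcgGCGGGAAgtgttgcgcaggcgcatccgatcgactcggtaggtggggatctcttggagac

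TTTGAA was found in 28 of the 36 promoters that the table holds for the mitotic kinesin and spindle list (77.8%), against 15.2% of all 35116 promoters of this length. CCAAT was in 66.7% of the list and 34.6% of all promoters. That share was not particular to this list. It was 85% for endoplasmic reticulum chaperones and 66.7% for cholesterol and fatty acid synthesis, but 22.2% for cytosolic heat shock chaperones. In the list of homologous recombination and Fanconi genes, TTCCCGC was in 13 of 28 promoters (46.4%) and in the licensing list in 9 of 26 (34.6%), against 6.55% of all promoters, while TTCCCGC was in 5.56% of the kinesin and spindle list and TTTGAA in 3.85% of the licensing list. The kinetochore and centromere list held both motifs, with TTTGAA in 9 of 18 promoters (50%) and TTCCCGC in 6 of 18 (33.3%). TTTGAA was not particular to the spindle list or to lists that rose. It was in 10 of 21 promoters (47.6%) of the mitotic entry list. In the glucuronosyltransferase and retinoid list, whose calls were mostly lower, it was in 5 of 14 (35.7%). Among the 9378 promoters found for the 12926 genes tested, 9.20% held TTTGAA and 10.4% TTCCCGC, but the table holds none for the rest, so that these shares are incomplete. A match says that these letters occur in the window and not that a factor binds there.

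Replication genes rose as well. Of the 30 genes for origin licensing and the helicase, 26 were called higher and 0 lower, with a median log2 fold change of 1.11. The calls numbered 27, 27 and 25 without a DMSO replicate and 23, 23 and 23 without a PDA-66 replicate, and 23 held with each library left out. MCM10, which activates the helicase, had 37.8, 30.9 and 15.6 CPM in the DMSO libraries and 107, 106 and 107 CPM after PDA-66, with a log2 fold change of 1.92 ± 0.258 (SE) (adjusted p = 0.00393). CDC6, which loads the helicase onto origins, rose by 1.32 on the log2 scale, CDC45, a part of the active helicase, by 1.37, MCM7 by 0.88 and CLSPN, a mediator of the replication checkpoint, by 1.74. The kinase gene CDC7 rose by 1.33. The summed level of the list relative to the controls was 1.17, 1.06 and 0.774 in the DMSO libraries and 2.12, 2.15 and 2.13 after PDA-66.

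Of the 30 polymerases and factors of the replication fork, 23 were called higher and 0 lower (median 0.91). FEN1, which trims Okazaki fragments, had 85.7, 57.1 and 42.1 CPM in the DMSO libraries and 198, 199.6 and 201 CPM after PDA-66, POLA1, the catalytic subunit of polymerase alpha, rose by 0.97 on the log2 scale and POLA2 by 1.34. PCNA, the sliding clamp, rose by 1.08, a call that was lost without PDA-66 replicate 2. The fork calls numbered 27, 22 and 21 without a DMSO replicate and 17, 13 and 15 without a PDA-66 replicate. Of the 14 genes for deoxynucleotide synthesis, 12 were called higher and 1 lower. RRM2, the regulated subunit of ribonucleotide reductase, had 126, 159 and 59.2 CPM in the DMSO libraries and 353, 409 and 389.8 CPM after PDA-66, and TK1, a thymidine kinase, rose by 1.39. TYMS, the thymidylate synthase, rose by 1.08, and 39.9% of its exon bases are shared with ENOSF1 on the other strand. The deoxynucleotide calls numbered 12, 10 and 10 without a DMSO replicate and 8, 5 and 7 without a PDA-66 replicate. With each library left out in turn, 13 fork calls and 5 deoxynucleotide calls held.

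Of the 23 E2F, RB and G1/S cyclin genes that were tested, 15 were called higher and 0 lower (median 0.60). E2F1 and E2F2, activators of replication genes, rose by 1.40 and 1.50 on the log2 scale, CDK2 by 1.20, SKP2, which degrades CDK inhibitors, by 1.03 and CCNE2 by 1.27. CCNE2 shares 37.0% of its exon bases with INTS8 on the other strand. RB1 rose by 0.63 and CCND1 by 0.41, but RB1 was not called without PDA-66 replicate 1 or 2, nor CCND1 without any of the 3. The calls of this list numbered 16, 13 and 10 without a DMSO replicate and 6, 5 and 7 without a PDA-66 replicate, and 5 held. Of the 8 CDK inhibitors, CDKN2C, CDKN2D and CDKN3 rose, by 1.89, 1.13 and 1.32, the last not called without PDA-66 replicate 2. CDKN1C, by contrast, went from 2.86 ± 0.861 to 1.56 ± 0.291 CPM (SD, n = 3 each), which missed the threshold (adjusted p = 0.0532). Without DMSO replicate 1, 2 CDK inhibitors were called lower and 4 higher, against 3008 lower and 2982 higher of 13089 genes.

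CDKN1A, which encodes the p53-induced inhibitor p21, stood at 701, 178 and 241 CPM in the DMSO libraries and 342, 309.6 and 320.5 CPM after PDA-66. DMSO replicate 1 was more than 2 times above all PDA-66 libraries and the other controls were below them, and with all libraries its log2 fold change was -0.20 ± 0.418 (SE) with an adjusted p of 0.744. Without DMSO replicate 1 its log2 fold change was 0.63 with an adjusted p of 0.00334, so that the direction of CDKN1A depended on that control.

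Of the 32 genes for homologous recombination and the Fanconi pathway, 25 were called higher and 0 lower (median 0.95). BRCA1 had 54.5, 87.3 and 42.3 CPM in the DMSO libraries and 149.9, 158 and 149 CPM after PDA-66, BRCA2, a mediator of recombination, rose by 1.27 on the log2 scale, RAD54L, which remodels the DNA at the break, by 1.28 and FANCD2, which marks crosslinked DNA, by 1.00. All 4 were called with each library left out. The calls of the list numbered 25, 26 and 21 without a DMSO replicate and 15, 15 and 17 without a PDA-66 replicate, and 14 held. Of the 16 genes for the replication stress checkpoint, 8 were called higher, among them the kinase CHEK1 (1.09), MDC1 (1.31), an adaptor at broken DNA, and the histone variant gene H2AFX, which had 306, 166 and 109 CPM in the DMSO libraries and 579.7, 559 and 554 CPM after PDA-66. ATR rose by 0.38 and was not called when any PDA-66 replicate was left out. The calls of this checkpoint list made up 50% of it, against 11.2% of all genes called higher. Their number was 8, 8 and 7 without a DMSO replicate and 5, 5 and 5 without a PDA-66 replicate. Mismatch and base excision repair held fewer calls, with 8 of 25 genes called higher and 1 lower (median 0.30), which is 36% against 23.7% of all genes. PARP2 and XRCC1, which act at single-strand breaks, rose by 0.81 and 0.88, while the glycosylase NEIL1, which shares 26.4% of its exon bases with MAN2C1 on the other strand, fell by 0.90, a call lost without DMSO replicate 3 or PDA-66 replicate 2 or 3. The calls higher in that list numbered 11, 7 and 5 without a DMSO replicate and 4, 3 and 4 without a PDA-66 replicate.

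Chromatin factors that work at the replication fork rose with the replication genes. In the list for chromatin assembly and DNA methylation, 20 of 27 genes were called higher and 1 lower (median 0.81). The maintenance DNA methyltransferase DNMT1 had 174, 121 and 133 CPM in the DMSO libraries and 329.7, 323 and 322 CPM after PDA-66, its partner UHRF1 rose by 1.37 on the log2 scale and the histone chaperone ASF1B by 1.57. The calls numbered 22, 23 and 18 without a DMSO replicate and 15, 13 and 14 without a PDA-66 replicate, and 13 held. The replication-dependent histone genes, whose transcripts mostly lack a poly(A) tail and are therefore poorly sampled by poly(A) selection, gave 1 call higher and 4 lower among 25 tested, which is 20% against 23.7% of all genes. HIST1H1B rose by 1.34, and HIST1H3D and HIST1H2BF each had a log2 fold change of -1.02, all called only in part of the fits with a library left out. The histone calls lower numbered 7, 9 and 1 without a DMSO replicate and 0, 0 and 0 without a PDA-66 replicate. Histone genes have near-identical copies, between which reads may be split.

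**Figure D5:**
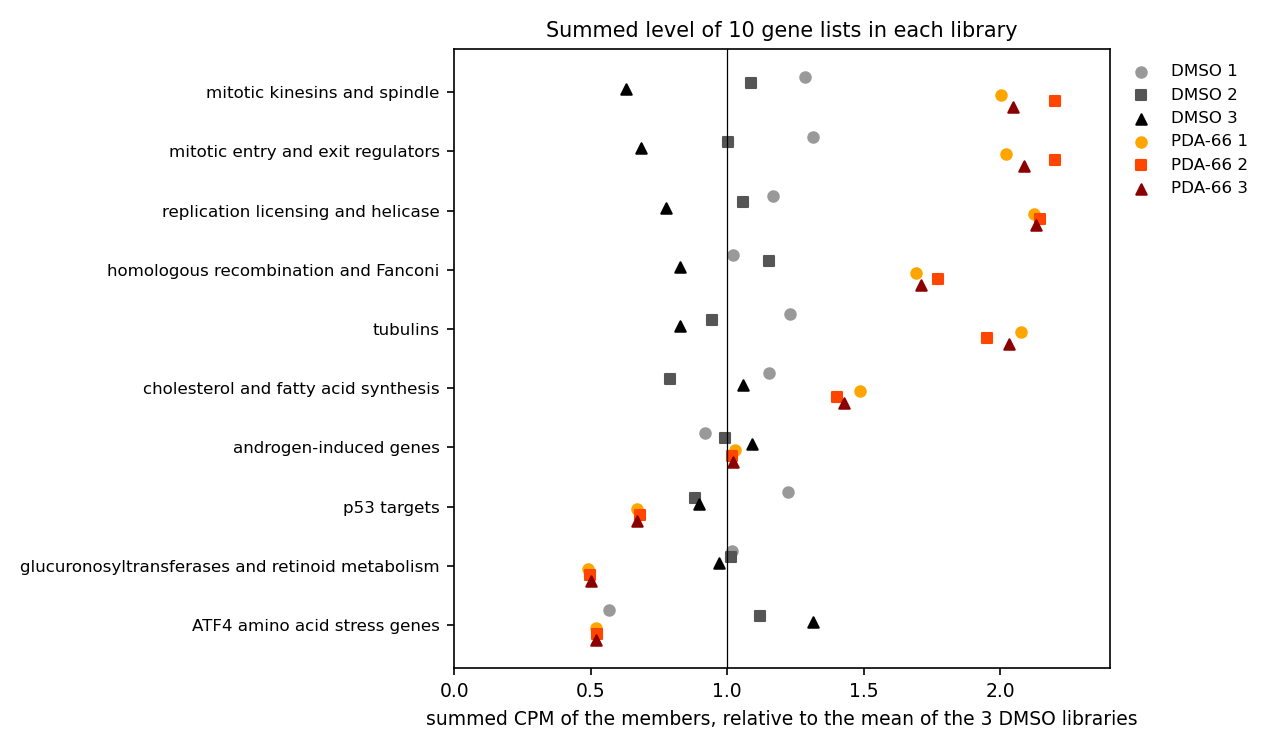
Summed CPM of the tested members of 10 gene lists (y axis) in each library, relative to the mean of the 3 DMSO libraries (x axis), with DMSO in grey to black and PDA-66 in orange to red. For the mitotic, replication, repair and tubulin lists all PDA-66 libraries lie to the right of all DMSO libraries, and for the ATF4 list DMSO replicate 1, at 0.566, lies next to the PDA-66 libraries, at 0.519 to 0.523.

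Tubulin genes, whose products are the reported target of PDA-66, moved in both directions. Cells adjust tubulin transcripts to the amount of free tubulin, which is known as autoregulation. Of the 14 tubulin genes tested, 7 were called higher and 2 lower, with a median log2 fold change of 0.38. This is 64.3% against 23.7% of all genes. TUBB, a major beta tubulin, had 982, 731 and 620.4 CPM in the DMSO libraries and 1703, 1596 and 1671 CPM after PDA-66, with a log2 fold change of 1.09 ± 0.152 (SE) (adjusted p = 0.00424). The alpha tubulin TUBA1B had 477, 377 and 271 CPM in the DMSO libraries and 799, 764 and 789.9 CPM after PDA-66, and 44.0% of its exon bases are shared with an antisense gene. TUBB4B rose by 1.16 on the log2 scale, TUBA4A by 1.54, TUBA1C by 0.51 and TUBG1, the gamma tubulin that nucleates microtubules, by 1.25. These 6 calls held with each library left out. TUBB3, the neuronal beta tubulin, fell from 31.4 ± 7.60 to 18.0 ± 2.27 CPM (SD, n = 3 each) and TUBE1, epsilon tubulin, from 20.7 ± 6.94 to 9.57 ± 1.32 CPM (SD, n = 3 each). Both were no longer called without any one of the PDA-66 replicates, nor TUBE1 without DMSO replicate 3, and the calls lower numbered 2, 3 and 1 without a DMSO replicate and 0, 0 and 0 without a PDA-66 replicate. Tubulin genes are similar in sequence, so that reads may be split between them. Of the 31 microtubule-associated and tubulin-folding genes, 10 were called higher and 1 lower, which is 35.5% against 23.7% of all genes. Their calls higher numbered 13, 3 and 2 without a DMSO replicate and 1, 1 and 1 without a PDA-66 replicate. MAP2, which stabilizes microtubules, rose by 1.07 and was the single call of that list that held with each library left out.

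The list with the lowest median was that of ATF4 and its targets in amino acid supply, which are switched on by the integrated stress response. All 31 genes tested had a log2 fold change below 0, with a median of -1.15, while 48.8% of all genes had one above 0. Of the 31, 21 were called lower, which is 67.7% against 12.4% of all genes called lower. ATF4 itself had 547, 856 and 956 CPM in the DMSO libraries and 359, 339 and 365 CPM after PDA-66, with a log2 fold change of -1.15 ± 0.179 (SE) (adjusted p = 0.00568). DDIT3, which encodes CHOP, had 49.1, 101 and 124 CPM in the DMSO libraries and 15.9, 12.5 and 16.7 CPM after PDA-66, and 27.2% of its exon bases are shared with MARS1 on the other strand. ATF3, a further stress factor, changed by -1.82 ± 0.273 (SE), SESN2, an inhibitor of mTORC1, by -1.80 ± 0.235 (SE) and PPP1R15A, which ends the response, by -1.34 ± 0.231 (SE). These 5 calls held with each library left out.

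The controls were not alike in this list. SLC7A11, the cystine transporter, had 134, 891 and 793 CPM in the DMSO libraries and 102, 134 and 112 CPM after PDA-66, so that DMSO replicate 1 was at the level of the highest PDA-66 library. ASNS, the asparagine synthetase, had 127, 400.2 and 487 CPM in the DMSO libraries and 132, 154 and 135 CPM after PDA-66, and 49.3% of its exon bases are shared with another gene model on the same strand. TRIB3, a pseudokinase, had 108, 333 and 473 CPM in the DMSO libraries and 98.1, 97.2 and 97.0 CPM after PDA-66. The summed level of the list relative to the control mean was 0.566, 1.12 and 1.31 in the DMSO libraries and 0.519, 0.523 and 0.520 after PDA-66. The calls numbered 31, 8 and 8 without a DMSO replicate and 8, 7 and 8 without a PDA-66 replicate, and 7 held throughout. For all genes the calls lower in these fits numbered 3008, 1183 and 730 without a DMSO replicate and 396, 314 and 416 without a PDA-66 replicate. SLC7A11, ASNS, TRIB3, PSAT1 and STC2 were called without DMSO replicate 1 but in none of the other 5 fits.

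The promoter of CHAC1 (chr15:40953221-40953520 on the plus strand), the ATF4-induced gene with the largest change, is printed with TGATGCA, or TGCATCA on the other strand, and the CCAAT box in capitals. TGATGCA is part of the amino acid response element, was chosen after the values were seen, and occurs in 2.63% of all promoters and 2 of the 23 found for this list.
CHAC1: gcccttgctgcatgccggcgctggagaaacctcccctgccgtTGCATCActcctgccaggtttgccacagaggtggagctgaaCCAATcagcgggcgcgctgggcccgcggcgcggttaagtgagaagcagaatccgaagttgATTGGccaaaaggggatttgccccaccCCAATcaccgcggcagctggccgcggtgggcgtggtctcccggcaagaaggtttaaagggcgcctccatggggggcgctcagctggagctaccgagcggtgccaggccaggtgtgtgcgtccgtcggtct

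Chaperones of the endoplasmic reticulum gave 5 calls lower and 0 higher among 21 genes. This 23.8%, all of it lower, stands against 12.4% of all genes called lower and 23.7% called in either direction. HERPUD1, a part of the degradation machinery of the reticulum, had 129.8, 214 and 217 CPM in the DMSO libraries and 85.5, 81.9 and 87.6 CPM after PDA-66 and DNAJB9 29.3, 65.1 and 48.1 CPM in the DMSO libraries and 18.5, 19.2 and 18.5 CPM after PDA-66. XBP1 fell by 0.85 on the log2 scale, called in 1 of the 6 fits with a library left out. The main chaperone gene HSPA5 stood at 980.5 ± 106 in DMSO and 910.1 ± 12.9 CPM after PDA-66 (SD, n = 3 each) and was not called (adjusted p = 0.424). The calls lower numbered 9, 4 and 2 without a DMSO replicate and 2, 2 and 2 without a PDA-66 replicate. Without DMSO replicate 1 there were also 6 calls higher, in a fit that called 2982 of 13089 genes higher.

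Targets of the tumour suppressor p53, which is wild type in LNCaP, were called in a single direction with all libraries. Of 31 tested, 0 were called higher and 12 lower, with a median log2 fold change of -0.42. This is 38.7% against 12.4% of all genes called lower. GADD45A, a growth arrest gene, had 38.5, 35.3 and 43.0 CPM in the DMSO libraries and 16.7, 18.8 and 17.9 CPM after PDA-66 and CCNG1 fell by 0.79 on the log2 scale. PMAIP1, a BH3-only gene that promotes apoptosis, fell from 43.4 ± 9.03 to 21.2 ± 1.47 CPM (SD, n = 3 each), and BBC3, another such gene, by 0.88, a call lost without PDA-66 replicate 1 or 2. GDF15 and SESN2 are also targets of ATF4 and GDF15 stands in the secretory list as well. MDM2, the ligase that degrades p53, had 828, 451 and 372 CPM in the DMSO libraries and 360.1, 397 and 375 CPM after PDA-66 and was not called (adjusted p = 0.140). The calls lower numbered 13, 14 and 11 without a DMSO replicate and 8, 7 and 8 without a PDA-66 replicate, and 7 held. Without DMSO replicate 1, 7 p53 targets, CDKN1A among them, were called higher, in a fit that called 2982 of 13089 genes higher. This number of targets is therefore near the share of all genes. Of the 14 BCL2 family genes, PMAIP1 and BBC3 were called lower and 0 higher, which is 14.3% of the list against 12.4% of all genes called lower. Without DMSO replicate 1 there were 4 lower and 3 higher, against 3008 lower and 2982 higher of 13089 genes.

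Androgen-induced genes moved both ways. Of 28 tested, 5 were called higher and 8 lower, and the median log2 fold change was 0.01. The calls made up 46.4% of the list against 23.7% of all genes. Besides FKBP5 and EAF2, PPAP2A, a lipid phosphatase, rose from 121 ± 17.6 to 251 ± 5.59 CPM (SD, n = 3 each). TMPRSS2, the protease gene fused to ETS factors in many prostate cancers, had 306, 583 and 495 CPM in the DMSO libraries and 244, 224 and 239 CPM after PDA-66 and a log2 fold change of -0.97 ± 0.199 (SE), a call lost without PDA-66 replicate 2. SLC45A3, the prostein gene, fell from 309 ± 52.6 to 174 ± 2.58 CPM (SD, n = 3 each). KLK3, which encodes PSA, stood at 69.4, 26.5 and 52.9 CPM in the DMSO libraries and 39.0, 31.8 and 38.2 CPM after PDA-66 and its groups overlapped (adjusted p = 0.268). KLK2, a related kallikrein, was not called either, with a log2 fold change of 0.27. The calls higher numbered 6, 3 and 5 without a DMSO replicate and 3, 3 and 3 without a PDA-66 replicate, and those lower 11, 8 and 6 without a DMSO replicate and 4, 3 and 5 without a PDA-66 replicate.

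Of the 14 genes of luminal prostate cells, 1 was called higher and 4 lower, which is 35.7% against 23.7% of all genes. ACPP, the prostatic acid phosphatase, had 59.3, 75.2 and 61.1 CPM in the DMSO libraries and 28.5, 29.3 and 29.1 CPM after PDA-66, with a log2 fold change of -1.17 ± 0.119 (SE) (adjusted p = 0.00222), and STEAP2, a metalloreductase, fell by 0.73 on the log2 scale. GATA2, a transcription factor of luminal cells, rose from 155 ± 26.8 to 286 ± 2.76 CPM (SD, n = 3 each). These 3 calls held with each library left out. The calls higher numbered 3, 2 and 1 without a DMSO replicate and 1, 1 and 1 without a PDA-66 replicate, and those lower 5, 3 and 2 without a DMSO replicate and 2, 2 and 2 without a PDA-66 replicate.

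Enzymes of steroid conjugation and retinoid metabolism made up a further list with mostly lower levels. Of 21 glucuronosyltransferase and retinoid genes tested, 11 were called lower and 1 higher, with a median log2 fold change of -0.78. This is 57.1% against 23.7% of all genes. The summed level of the list was 1.02, 1.01 and 0.968 relative to the control mean in the DMSO libraries and 0.488, 0.496 and 0.501 after PDA-66, and here the 3 controls lay close together. RDH11, a retinal reductase that is abundant in prostate, had 863, 998 and 987 CPM in the DMSO libraries and 437, 434 and 442 CPM after PDA-66, with a log2 fold change of -1.12 ± 0.0873 (SE) (adjusted p = 0.000709). RDH10, the main retinol dehydrogenase of development, changed by -2.18 ± 0.449 (SE) and was not called without PDA-66 replicate 1 or 2. UGT2B17 and UGT2B15, which inactivate androgens, had log2 fold changes of -1.22 ± 0.182 (SE) and -0.74 ± 0.188 (SE), and UGT2B11 had -1.44 ± 0.198 (SE). UGT2B4 fell from 2.77 ± 1.06 to 0.291 ± 0.105 CPM (SD, n = 3 each). These UGT2B genes are similar in sequence, so that the share of each is uncertain, and UGT2B15 was not called when any PDA-66 replicate was left out. The calls lower numbered 14, 10 and 8 without a DMSO replicate and 5, 5 and 6 without a PDA-66 replicate, and 5 held.

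Of the 17 AHR targets and xenobiotic enzymes tested, 6 were called higher and 1 lower (median 0.29), which is 41.2% against 23.7% of all genes. CYP1A1 and CYP1A2, neighbouring genes that are read in opposite directions from a shared regulatory region, were the most changed, and CYP1A2 rose from 0.146 ± 0.189 to 1.35 ± 0.265 CPM (SD, n = 3 each). NQO1, a quinone reductase that both AHR and NRF2 induce, had 33.4, 25.5 and 20.2 CPM in the DMSO libraries and 67.2, 72.8 and 63.5 CPM after PDA-66. GSTA1, a glutathione transferase, fell from 8.81 ± 3.04 to 3.04 ± 0.609 CPM (SD, n = 3 each). These 4 calls held with each library left out. CBR1, a carbonyl reductase, rose by 0.71 on the log2 scale and was not called without PDA-66 replicate 2 or 3. The calls higher numbered 8, 6 and 4 without a DMSO replicate and 4, 3 and 3 without a PDA-66 replicate, and those lower 2, 2 and 1 without a DMSO replicate and 1, 1 and 1 without a PDA-66 replicate. Other AHR targets, such as CYP1B1 and AHRR, had too few reads to be tested.

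The promoter of CYP1A1 (chr15:74725479-74725778 on the minus strand), the largest increase among these genes, is printed with GCGTG, the core to which AHR binds, or CACGC on the other strand, and the CCAAT box in capitals. GCGTG was chosen after the values were seen and occurs in 36.5% of all promoters, so that its presence is common.
CYP1A1: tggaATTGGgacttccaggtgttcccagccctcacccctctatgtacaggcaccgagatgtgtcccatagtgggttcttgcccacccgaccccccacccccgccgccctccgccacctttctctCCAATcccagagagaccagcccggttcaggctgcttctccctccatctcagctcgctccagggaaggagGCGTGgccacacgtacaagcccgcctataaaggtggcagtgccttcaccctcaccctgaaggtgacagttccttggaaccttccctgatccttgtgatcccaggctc

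Of the 17 NRF2 targets, which defend against oxidants, 5 were called higher and 3 lower, which is 47.1% against 23.7% of all genes. HMOX1, the heme oxygenase, had 43.8, 59.9 and 103 CPM in the DMSO libraries and 21.1, 23.9 and 23.1 CPM after PDA-66 and a log2 fold change of -1.60 ± 0.273 (SE), and NQO1 changed in the other direction. The calls higher numbered 8, 3 and 3 without a DMSO replicate and 1, 1 and 1 without a PDA-66 replicate, and those lower 3, 2 and 2 without a DMSO replicate and 1, 1 and 1 without a PDA-66 replicate. For cholesterol and fatty acid synthesis, 9 of 31 genes were called higher and 1 lower (median 0.33), which is 32.3% against 23.7% of all genes. FASN, the fatty acid synthase, had 1096, 476 and 800.4 CPM in the DMSO libraries and 1820.4, 1606 and 1674 CPM after PDA-66, and it was not called without DMSO replicate 3 or PDA-66 replicate 1 or 2. ELOVL6, a fatty acid elongase, rose by 0.85 on the log2 scale, INSIG1, a sterol sensor partner, by 1.03 and SREBF1, the regulator of lipogenic genes, by 0.78. Of the lipid genes named, FADS1 and ELOVL6 were called with each library left out. The calls higher of the lipid list numbered 19, 9 and 3 without a DMSO replicate and 3, 2 and 5 without a PDA-66 replicate.

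Cytosolic heat shock chaperones gave 6 calls higher and 0 lower among 19 genes, which is 31.6% against 11.2% of all genes called higher. These calls numbered 13, 2 and 0 without a DMSO replicate and 0, 0 and 0 without a PDA-66 replicate. HSP90AA1 had 3109, 2307 and 2119 CPM in the DMSO libraries and 3459, 3763 and 3596 CPM after PDA-66, CHORDC1, a co-chaperone of HSP90, rose by 1.05 on the log2 scale and HSPH1 by 0.79. Hypoxia targets and glycolysis had 12 of 30 genes called higher and 2 lower, which is 46.7% against 23.7% of all genes. PFKFB3, which activates glycolysis, rose by 0.81 and ENO1, an enolase, by 0.38, while VEGFA, the vascular growth factor, had 42.8, 111 and 131 CPM in the DMSO libraries and 38.1, 37.3 and 39.2 CPM after PDA-66 and was called lower. The glycolysis calls numbered 18, 6 and 5 without a DMSO replicate and 1, 0 and 1 without a PDA-66 replicate for genes higher, and 0 calls of either list held with each library left out.

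Among immediate early genes, which growth factors switch on within minutes, 0 of 17 were called higher and 7 lower (median -0.38). This is 41.2% against 12.4% of all genes called lower. EGR1 had 22.5, 41.9 and 25.1 CPM in the DMSO libraries and 4.40, 2.50 and 3.11 CPM after PDA-66, with a log2 fold change of -3.14 ± 0.295 (SE) (adjusted p = 0.00175), and FOS had 13.9, 21.4 and 16.6 CPM in the DMSO libraries and 3.51, 1.82 and 3.11 CPM after PDA-66, with -2.60 ± 0.251 (SE). The calls lower numbered 10, 5 and 3 without a DMSO replicate and 3, 3 and 3 without a PDA-66 replicate, and EGR1, FOS and ATF3 were called in each of them. Of the 8 MAP kinase feedback genes tested, DUSP4 and DUSP6, phosphatases of ERK, were called lower (log2 fold changes -1.28 and -1.26) and 0 higher. This is 25% against 12.4% of all genes called lower and 23.7% called in either direction. These calls numbered 6, 2 and 2 without a DMSO replicate and 0, 0 and 1 without a PDA-66 replicate. Of the 17 FOXO targets, 1 was called higher and 5 lower, which is 35.3% against 23.7% of all genes. FBXO32, a ubiquitin ligase subunit of muscle wasting, fell from 14.5 ± 0.531 to 6.15 ± 0.202 CPM (SD, n = 3 each), and CCNG2, an inhibitory cyclin, by 1.08 on the log2 scale. TXNIP, which binds thioredoxin and limits glucose uptake, had 104, 44.5 and 8.17 CPM in the DMSO libraries and 159, 169 and 169 CPM after PDA-66 and was not called (adjusted p = 0.0840), with controls that were far apart. The FOXO calls lower numbered 9, 3 and 3 without a DMSO replicate and 2, 2 and 2 without a PDA-66 replicate.

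Of the 32 MYC and ribosome biogenesis genes, 10 were called higher and 3 lower, which is 40.6% against 23.7% of all genes. TCOF1, a nucleolar factor, rose by 1.17 and UTP20 by 0.69 on the log2 scale. The calls higher of this list numbered 16, 7 and 4 without a DMSO replicate and 2, 2 and 2 without a PDA-66 replicate. Of the 11 Wnt feedback targets, 3 were called higher and 1 lower, which is 36.4% against 23.7% of all genes. TNFRSF19 fell by 0.89, a call that held with each library left out. Of the 23 interferon-stimulated genes, 1 was called higher and 4 lower, which is 21.7% against 23.7% of all genes. OAS3, which senses double-stranded RNA, rose from 20.1 ± 7.09 to 52.6 ± 2.25 CPM (SD, n = 3 each). Without DMSO replicate 1, 8 genes of this list were called higher, in a fit that called 2982 of 13089 genes higher. The calls lower of the interferon list numbered 5, 3 and 4 without a DMSO replicate and 0, 1 and 0 without a PDA-66 replicate. Of the 24 autophagy and lysosome genes, 4 were called higher and 6 lower, which is 41.7% against 23.7% of all genes. MAP1LC3B, the LC3B gene, stood at -0.99 and GLA, a lysosomal galactosidase, at 1.03 on the log2 scale. The calls lower of this list numbered 7, 5 and 3 without a DMSO replicate and 1, 1 and 1 without a PDA-66 replicate. Only 6 of the 22 genes of the secretory phenotype list were tested, with 2 called higher and 3 lower, which is 83.3% against 23.7% of all genes. LMNB1, a lamin of the nuclear envelope that is also counted in the chromatin assembly list, rose by 1.52. Of the secretory list, only this call and that of GDF15 held with each library left out.

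A single fit of all 9 LNCaP libraries, which include 3 treated for 12 h, called fewer genes between 24 h PDA-66 and DMSO, with 395 of 13156 (3%). PDA-66 12 h replicate 2 stood apart from its group, and without it, which was chosen after seeing the data, 3725 of 13335 (27.9%) were called. The number of members called higher, with the number without that library in brackets, was 1 (12) for the spindle assembly checkpoint, 7 (22) for mitotic entry and exit, 10 (39) for kinesins and spindle and 5 (20) for the kinetochore. It was 17 (28) for licensing, 7 (25) for the fork, 8 (26) for homologous recombination and Fanconi, 9 (21) for chromatin assembly and 4 (7) for tubulins. Of these lists, licensing had the largest count in the fit of all 9. The number called lower was 4 (24) for the ATF4 list, 6 (13) for p53 targets, 6 (11) for glucuronosyltransferases and retinoid genes and 3 (7) for immediate early genes. ATF4 itself had an adjusted p of 0.126 in the fit of all 9 and 0.00171 without that library, with a log2 fold change of -1.15 and -1.14.

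LNCaP cells treated for 12 h were compared in the study with the same DMSO controls, so that both times share their reference, and levels on a scale set over all 9 LNCaP libraries are given only side by side. DIO3 stood at 27.0, 28.0 and 49.3 CPM in the controls, 0.332, 0.823 and 0.358 CPM after 12 h and 1.49, 1.64 and 1.61 CPM after 24 h. FKBP5 had 146, 133 and 122 CPM in the controls, 310.0, 208 and 289 CPM after 12 h and 393, 425 and 405 CPM after 24 h. TUBB had 965, 718 and 609 CPM in the controls, 904, 664 and 1047 CPM after 12 h and 1675, 1569 and 1644 CPM after 24 h. For DIO3 and FKBP5 all treated libraries of both times lay apart from the controls, and for TUBB the 12 h libraries overlapped with the controls while the 24 h libraries lay above both. EGR1 had 22.1, 41.1 and 24.6 CPM in the controls, 8.43, 11.8 and 15.6 CPM after 12 h and 4.33, 2.46 and 3.06 CPM after 24 h. CDK1 had 152, 133 and 59.3 CPM in the controls, 499, 279.5 and 436 CPM after 12 h and 326, 422 and 371 CPM after 24 h. The differences between the times were not tested here.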

How the data were processed

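RNA sequencing libraries of LNCaP cells treated with PDA-66 or DMSO were analysed, 3 per group. According to the methods of the study, polyA RNA was prepared with the NEBNext Ultra RNA kit and sequenced as single reads, and reads on RefSeq genes were counted. The submitters' processing notes name STAR 2.3.1s, hg19 and edgeR 3.14.0. Whether counting used strand is not given in the sources used here. The authors deposited raw counts per gene, and no comparison of their own was used.

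Samples were grouped by the labels, and columns were matched by the sample descriptions. Genes were filtered with filterByExpr, scaled by TMM and tested with edgeR 4.0.16 in R 4.3.3 (quasi-likelihood test, two-sided, Benjamini-Hochberg adjustment over the 12926 genes tested), with limma 3.58.1 and DESeq2 1.42.0 as alternatives. Genes at an adjusted p under 0.05 were called. CPM use TMM-scaled library sizes. The SE is the absolute log2 fold change over the square root of F. Total counts were 11923105 to 14579939 per library. On simulated counts the test called 87 of 100 genes changed by 1 on the log2 scale, 100 of 100 changed by 2, and 17 of 12726 unchanged genes, of 12832 tested. The simulated counts had the same dispersion in both groups and independent genes. They therefore lacked the wider spread of the DMSO libraries, and these rates need not hold for the real libraries.

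Named were the 5 genes per direction with the smallest p, the 12 largest called changes per direction whose mean was 10 CPM or more and whose groups did not overlap, and, from the 36 gene lists, called members, up to 4 with the smallest p and members whose role is described, besides the markers. The lists, members and tests were chosen with earlier results of these data known. The 12 h libraries served for levels and alternatives, and PC-3 libraries for marker levels. CT1258 was not used here, and some genes are not reported here. Motifs were searched in RefSeq promoters (GRCh38.p14) on both strands, and hg19 positions are from GENCODE models. Leaving out each library, the replicate block and other filters, scalings and tests were tried.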

Additional observations from a re-analysis of the deposited data

How the results depend on the processing

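With library size only, size factors of DESeq2, low counts unfiltered, a minimum of 1 CPM in 3 libraries, the earlier or the robust form of the quasi-likelihood test, edgeR's likelihood ratio and exact tests and DESeq2's Wald test, 2858 to 3715 genes were called. Library size only gave 1352 higher and 1712 lower. limma voom with quality weights called 4853 genes (2406 higher, 2447 lower). The fit of all 9 LNCaP libraries called 395 (181 higher, 214 lower), and without PDA-66 12 h replicate 2, an alternative that was chosen after seeing the data, 3725. At an adjusted p under 0.001 there were 8 calls (2 higher, 6 lower), and with a log2 fold change beyond 1 in either direction 772 (299 higher, 473 lower). Leaving out 1 library gave 643 to 5990 calls, 329 to 2982 of them higher and 314 to 3008 lower, where a group of 2 remains. In each alternative the genes that were called in both fits had the same direction, but the fits share their libraries and are not independent. CDKN1A reversed to a log2 fold change of 0.27 with voom and to 0.63 without DMSO replicate 1, and lay between -0.54 and 0.63 with a library left out. Of the other values for named genes, 3321 kept their direction and side of the threshold, 472 lost the call and 25 gained it, and of those for list counts 1386 stayed within 1.5 times and 420 did not. The cause was not tested.

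A fit with the replicate number as a block called 3227 genes (1594 higher, 1633 lower) and gave CDKN1A a log2 fold change of 0.065. Whether the numbers pair the samples cannot be settled with 3 libraries per group. The deviations of same-numbered libraries correlated with 0.000272, 0.235 and 0.0497, and those of differently numbered libraries with -0.213 to 0.185. The highest value was that of the replicates numbered 2, while DMSO replicate 3 correlated best with PDA-66 replicate 1, at 0.185.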

Other observations

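Values of 5 genes that bone morphogenetic protein (BMP) signalling is known to induce follow. The genes were chosen after their values were seen and make up no list. ID1 stood at 42.1, 14.9 and 17.7 CPM in the DMSO libraries and 118, 133 and 137 CPM after PDA-66, with a log2 fold change of 2.37 ± 0.334 (SE) and an adjusted p of 0.00432. ID3 had 25.8, 11.2 and 12.8 CPM in the DMSO libraries and 55.4, 58.1 and 58.3 CPM after PDA-66. SMAD6, an inhibitor in the same pathway, measured 8.68, 3.94 and 3.69 CPM in the DMSO libraries and 17.2, 17.6 and 16.7 CPM after PDA-66, with a log2 fold change of 1.64 ± 0.280 (SE) and an adjusted p of 0.00732. These 3 calls held with each library left out. ID2 rose by 0.69 on the log2 scale (adjusted p = 0.0276), and with a library left out it was called only without DMSO replicate 1. SMAD7, which inhibits TGF-beta and BMP receptors, was not called (log2 fold change 0.01 ± 0.160 (SE), adjusted p = 0.956).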
